A study of Drosophila melanogaster with 15 samples.

Results

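The glutathione S-transferase (GST) genes of *Drosophila melanogaster* were examined in RNA from adult heads. They were taken by symbol, as every gene whose symbol begins with *GstD*, *GstE*, *GstS*, *GstT*, *GstO* or *GstZ* and a digit, which gave 35 of the 13259 genes in the table of gene counts. The 35 genes comprise 11 of the delta class, 14 of epsilon, 1 of sigma, 4 of theta, 3 of omega and 2 of zeta. By chromosome arm, 17 lie on 2R, 13 on 3R, 3 on 3L and 2 on X.

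RNA-Seq libraries were made from *GMR/+* controls, from *GMR > prp4* RNAi (GD) flies and from *GMR > prp8* RNAi (GD) flies, with 5 libraries of each genotype and 15 in all. PRP4 and PRP8 are components of the spliceosome, the machinery that removes introns, and *GMR* drives expression in the developing and adult eye, so that a whole head also holds many cells in which the RNAi was not driven. All flies were 3 to 5 days old, had been kept for at least 3 cycles of 12 h light and 12 h dark, and were labelled as frozen at ZT12, the end of the light phase, although the study's text also names another collection time. Each knockdown is represented by a single RNAi line, so the knockdown and the genetic background of its line cannot be told apart.

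GSTs join the tripeptide glutathione to reactive or fat-soluble compounds, which makes these easier to export, and some reduce peroxides. Delta and epsilon GSTs are the large insect-specific classes and are known for insecticide and oxidative stress responses, whereas zeta GSTs take part in tyrosine breakdown and omega GSTs include the eye pigment enzyme Sepia. Many of these genes are targets of the stress-responsive factor CncC, which is held in check by Keap1.

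Gene counts summed to between 11753627 and 11979892 per library. *CG7028*, the symbol under which *prp4* is listed, had 141 to 165 reads in controls and 111 to 149 in *GMR > prp4* RNAi, and *Prp8* had 1339 to 1545 in controls and 1264 to 1572 in *GMR > prp8* RNAi. Neither passed the test against controls in its own knockdown (edgeR quasi-likelihood test, adjusted p = 0.101 and 0.278), while *Prp8* was higher in *GMR > prp4* RNAi than in *GMR > prp8* RNAi by 0.21 on the log2 scale (adjusted p = 0.0492). The library labelled *GMR > prp8* RNAi replicate 14 stood apart: *CG10264* had 132 reads in it, 0 in the other 4 *GMR > prp8* RNAi libraries and in all controls, and 108 to 152 in the *GMR > prp4* RNAi libraries. *CG13891* had 72 reads in it, 0 to 3 in the other 4 and 59 to 73 in *GMR > prp4* RNAi. The eye color gene *w* had 6629 in it, 4081 to 4613 in the other 4 and 5524 to 6464 in *GMR > prp4* RNAi. Replicate 14 also held the 1572 reads of *Prp8*, while the other 4 held 1264 to 1311, below every control. Whether this library carries the right label was not tested. Without it *Prp8* had a log2 fold change of -0.16 against controls (adjusted p = 0.0552) and was higher in *GMR > prp4* RNAi by 0.25 (adjusted p = 0.00157). Tests on *GMR > prp8* RNAi for the genes described below are therefore given with and without it. Photoreceptor markers were abundant in every group, with sums of 8 markers between 927305 and 1138000 reads, and 4 germ line markers summed to at most 7 reads. In *GMR > prp4* RNAi, 2 of 8 photoreceptor markers, 2 of 4 glial markers and 2 of 3 tested hemocyte markers were lower than in controls, beside 4.66% of all genes tested, with sums of 4 glial markers of 37641 to 40482 reads beside 42634 to 48083 in controls and of 4 hemocyte markers of 2854 to 3270 beside 3852 to 4168. The third hemocyte marker, *NimC1*, had a log2 fold change of 0.19 and missed the threshold (adjusted p = 0.0672). In *GMR > prp8* RNAi, 3 of 8 photoreceptor markers (*Rh4*, *trp* and *inaD*) and 1 of 3 tested hemocyte markers (*Pxn*) were lower, beside 2.37% of all genes. Higher there were 1 of 4 muscle markers, *Act88F*, and *Mal-A1*, the 1 gut marker tested, beside 2.36%. These markers passed in the same direction without replicate 14. The muscle markers *wupA* and *up* then passed too, at 0.39 and 0.24 on the log2 scale (adjusted p = 0.0196 and 0.0195, edgeR quasi-likelihood test). The remaining muscle marker, *Mhc*, did not pass, and 5.76% of all genes passed in either direction. The sums of 4 hemocyte markers in *GMR > prp8* RNAi were 3090 to 3784 reads. Those of 4 fat body markers varied widely, from 63675 to 101306 in controls, 50449 to 230769 in *GMR > prp4* RNAi and 38510 to 120509 in *GMR > prp8* RNAi. None of the 3 fat body markers tested passed against controls, with or without replicate 14. The part of these cell types in the levels of the GST genes was not tested.

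In control heads the family spanned a wide range of levels. Levels compared between genes are given as CPM (TMM-normalized counts scaled to library size) per kb of exon, with the SD over 5 libraries. The kb are those of annotated exons, while the counted windows reach 302 bp past the gene at both ends. Of the 35 windows 28 overlap another gene on the same strand, and the order of levels depends on this. *GstD1*, the best-known delta GST, was at 1748 ± 100.3 and *GstE12*, of the epsilon class, at 1631 ± 121, and the libraries of these genes overlapped. The next gene, *GstE3*, was at 177 ± 15.4, below every library of *GstE12*. *GstE1* followed at 136 ± 14.7 and *GstE9* at 132 ± 14.3, and these overlapped with each other.

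**Figure D1:**
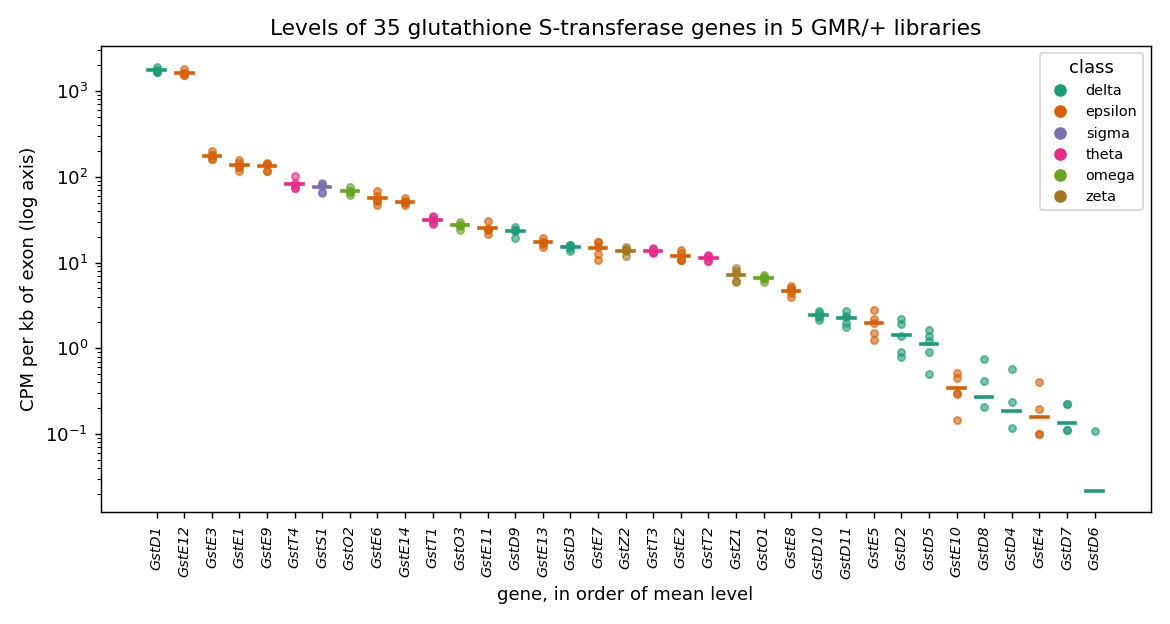
Level of each of the 35 GST genes in the 5 *GMR/+* libraries, in CPM per kb of exon on a log axis. Points are libraries, bars are means, colours are classes, and libraries without a read are not drawn. *GstD1* and *GstE12* stand above all other members.

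The other classes lay in the middle of this order. *GstT4* of the theta class was at 83.3 with libraries from 74.6 to 101.4, *GstS1*, the only sigma GST, at 75.6 ± 9.64 and *GstO2* of the omega class at 68.0 ± 5.12, with neighbours overlapping. At the low end, *GstD4*, *GstD6*, *GstD7*, *GstD8*, *GstE4* and *GstE10* had mean control counts under 10 and were not tested in any comparison. *GstD5*, with 5 to 16 reads in controls, was tested in comparisons with *GMR > prp8* RNAi only. Among the untested genes, *GstE4* had 0, 1, 1, 4 and 2 reads in controls, 5, 0, 1, 2 and 0 in *GMR > prp4* RNAi and 18, 6, 0, 11 and 8 in *GMR > prp8* RNAi, so that the groups overlapped.

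The share of reads taken by the whole family differed between genotypes by less than the spread between control libraries. Its members held 0.482 ± 0.0290% of gene counts in controls, 0.463 ± 0.0158% in *GMR > prp4* RNAi and 0.478 ± 0.0214% in *GMR > prp8* RNAi (SD, n = 5 each), or 0.486 ± 0.0121% in the latter without replicate 14 (SD, n = 4). Within the family, *GstE12* and *GstD1* together made up 77.3 to 78.3% of reads in control libraries, 75.0 to 76.6% in *GMR > prp4* RNAi and 75.7 to 78.1% in *GMR > prp8* RNAi, or 75.7 to 77.4% without replicate 14.

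*GstD1* gave 18762, 17154, 16697, 17935 and 17003 reads in controls, 19902, 16848, 17828, 15755 and 17662 in *GMR > prp4* RNAi and 19507, 19554, 18239, 17041 and 15350 in *GMR > prp8* RNAi. All groups overlapped, and the log2 fold changes were 0.02 (95% interval -0.12 to 0.16) and 0.02 (-0.13 to 0.18), the latter 0.05 without replicate 14. *GstE12* gave 29891, 25584, 26812, 27109 and 25976 reads in controls, 23988, 23546, 23664, 25019 and 24544 in *GMR > prp4* RNAi and 26173, 22755, 26737, 24559 and 27704 in *GMR > prp8* RNAi. Raw counts of *GstE12* in *GMR > prp4* RNAi lay below those of every control, but after normalization the groups overlapped and the log2 fold change of -0.15 (-0.28 to -0.02) missed the threshold (adjusted p = 0.147). Against controls *GstE12* had a log2 fold change of -0.09 in *GMR > prp8* RNAi, or -0.07 without replicate 14 (adjusted p = 0.655).

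The first comparison asked which members differ when *prp4* is knocked down. Of the 35 members, 28 were tested and 4 passed an adjusted p of 0.05, beside 9.63% of all 9012 genes tested. *GstE14* and *GstD3* were lower, beside 4.66% of all genes, and *GstE7* and *GstZ2* were higher, beside 4.97%. The libraries of 4 members did not overlap with those of controls, as for 9.18% of all genes. The median log2 fold change of the tested members was 0.09, beside 0.00 for all genes, and 19 were positive and 9 negative. In bulk heads, fewer cells of a type and less RNA per cell cannot be told apart.

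*GstE14*, known as *noppera-bo*, is an epsilon GST needed for ecdysteroid synthesis in the prothoracic gland of the larva. It gave 658, 592, 558, 631 and 615 reads in controls and 321, 256, 284, 363 and 327 in *GMR > prp4* RNAi. Every knockdown library was below every control, and *GstE14* fell by 0.96 on the log2 scale (SE 0.09, adjusted p = 1.38e-05, edgeR quasi-likelihood test), the lowest value among the tested members. In *GMR > prp8* RNAi it gave 537, 479, 630, 233 and 670 reads, where the 233 reads are those of replicate 14. That library lay below all *GMR > prp4* RNAi libraries, while the other 4 overlapped with controls. The log2 fold change of *GstE14* in *GMR > prp8* RNAi was -0.27 (-0.70 to 0.17) with replicate 14 and -0.08 (-0.28 to 0.12) without it.

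The decrease of *GstE14* spanned the whole gene, which is annotated at 13239729 to 13241013 of 2R on the plus strand (BDGP6) with 4 exons and 1 transcript. Mean reads of the first exon were 65.8 ± 12.4 in controls and 35.6 ± 5.98 in *GMR > prp4* RNAi, and those of the last exon were 422 ± 32.2 and 215 ± 41.2 (SD, n = 5). Reads spliced over the last intron numbered 337 to 412 per control library and 164 to 247 per *GMR > prp4* RNAi library, without overlap. Exon use within *GstE14* did not pass the test (unadjusted p = 0.911).

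*GstE7* gave 154, 115, 138, 157 and 99 reads in controls and 186, 190, 163, 232 and 241 in *GMR > prp4* RNAi. These groups did not overlap, and *GstE7* rose by 0.63 on the log2 scale (SE 0.14, adjusted p = 0.0147). In *GMR > prp8* RNAi it gave 140, 192, 143, 125 and 169 reads, overlapping with controls, with a log2 fold change of 0.20, or 0.28 without replicate 14 (adjusted p = 0.306). *GstE7* lies in the epsilon cluster of 2R, and its counted window overlaps those of its neighbours *GstE6* and *GstE8* on the same strand. *GstE8* had a log2 fold change of 0.31 in *GMR > prp4* RNAi and its libraries did not overlap with controls, but it missed the threshold (adjusted p = 0.0835). For *GstE6* the value was 0.18 (adjusted p = 0.245).

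*GstD3*, in the delta cluster of 3R, gave 139, 122, 137, 130 and 144 reads in controls and 121, 102, 103, 107 and 98 in *GMR > prp4* RNAi. Every knockdown library was below every control, and *GstD3* fell by 0.32 on the log2 scale (SE 0.08, adjusted p = 0.0196). In *GMR > prp8* RNAi the counts of *GstD3* were 133, 99, 111, 78 and 145, which overlapped with controls, and the log2 fold change was -0.26, or -0.14 without replicate 14 (adjusted p = 0.518). The call was lost without control replicate 3 (adjusted p = 0.0509). The counted window of *GstD3* overlaps those of *GstD2* and *GstD4*.

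*GstZ2* belongs to the zeta class, whose members act as maleylacetoacetate isomerases in tyrosine breakdown. It gave 414, 332, 386, 376 and 399 reads in controls and 388, 469, 468, 578 and 480 in *GMR > prp4* RNAi. These groups overlapped through 1 knockdown library, and *GstZ2* rose by 0.34 on the log2 scale (SE 0.10, adjusted p = 0.0441). This call was lost in 8 of the 10 fits that left out 1 library, with adjusted p up to 0.112. The other zeta gene, *GstZ1*, had a log2 fold change of 0.23 and missed the threshold (adjusted p = 0.346). The counted window of *GstZ2* overlaps those of *GstZ1* and *CG16779* on the same strand.

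**Figure D2:**
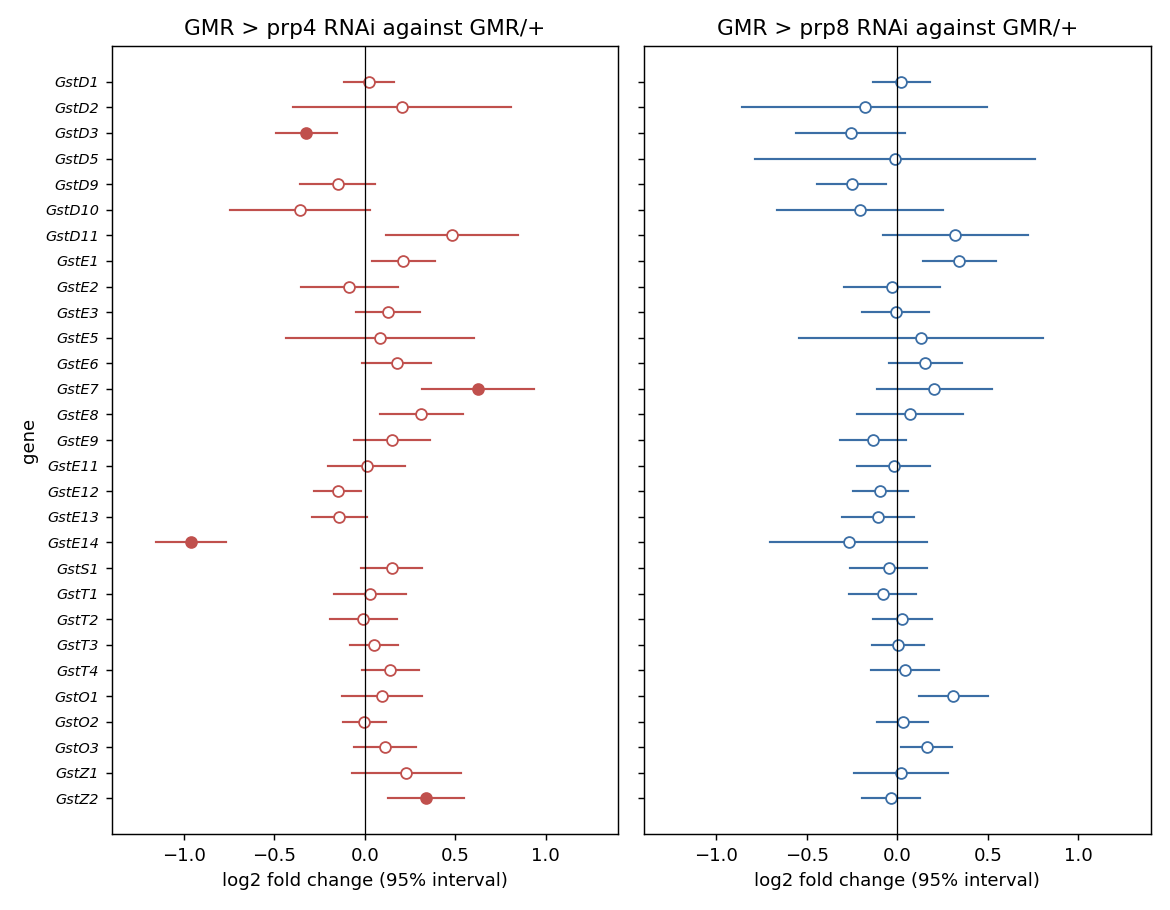
Log2 fold change of each tested GST gene against *GMR/+*, with its 95% interval, for *GMR > prp4* RNAi on the left and *GMR > prp8* RNAi on the right. Filled points passed an adjusted p of 0.05, which 4 members did on the left and none on the right, and *GstE14* is farthest from 0.

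The second comparison set *GMR > prp8* RNAi against controls. Of 29 members tested, 0 passed the edgeR quasi-likelihood test, beside 4.73% of all 9019 genes, and 4 had an unadjusted p below 0.05. By DESeq2 1 passed and by limma-voom 0. Without replicate 14, 1 member passed, *GstE1*, beside 5.76% of all genes. The median log2 fold change of the members was -0.01, or 0.04 without replicate 14, beside 0.00 for all genes.

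*GstE1* gave 1509, 1308, 1280, 1439 and 1176 reads in controls and 1946, 1894, 1769, 1488 and 1476 in *GMR > prp8* RNAi, and the groups overlapped through the lowest knockdown libraries. The log2 fold change of *GstE1* was 0.34 (0.14 to 0.54, adjusted p = 0.0534), and without replicate 14 it was 0.40 (adjusted p = 0.0185). In *GMR > prp4* RNAi, *GstE1* gave 1804, 1507, 1533, 1365 and 1498 reads, with a log2 fold change of 0.21 (adjusted p = 0.116). *GstO1*, an omega GST, gave 74, 77, 80, 67 and 73 reads in controls and 104, 84, 95, 92 and 89 in *GMR > prp8* RNAi. These groups did not overlap, which held for 5.72% of all genes tested, yet the log2 fold change of *GstO1*, 0.31, missed the threshold with replicate 14 (adjusted p = 0.0598) and without it (adjusted p = 0.0740).

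*GstE3* gave 1764, 1471, 1601, 1616 and 1480 reads in controls, 1783, 1701, 1465, 1642 and 1987 in *GMR > prp4* RNAi and 1597, 1810, 1650, 1307 and 1577 in *GMR > prp8* RNAi, and all groups overlapped. *GstE9* gave 1290, 1109, 1336, 1355 and 1097 reads in controls, 1338, 1192, 1201, 1470 and 1586 in *GMR > prp4* RNAi and 1113, 1203, 1090, 999 and 1279 in *GMR > prp8* RNAi, again with overlap. Neither gene passed a test, and their log2 fold changes in *GMR > prp8* RNAi were -0.01 for *GstE3* and -0.13 for *GstE9*, or 0.06 and -0.08 without replicate 14. The 4 theta genes passed no test, with log2 fold changes from -0.01 to 0.14 in *GMR > prp4* RNAi and from -0.08 to 0.04 in *GMR > prp8* RNAi, or from -0.03 to 0.04 without replicate 14.

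**Figure D3:**
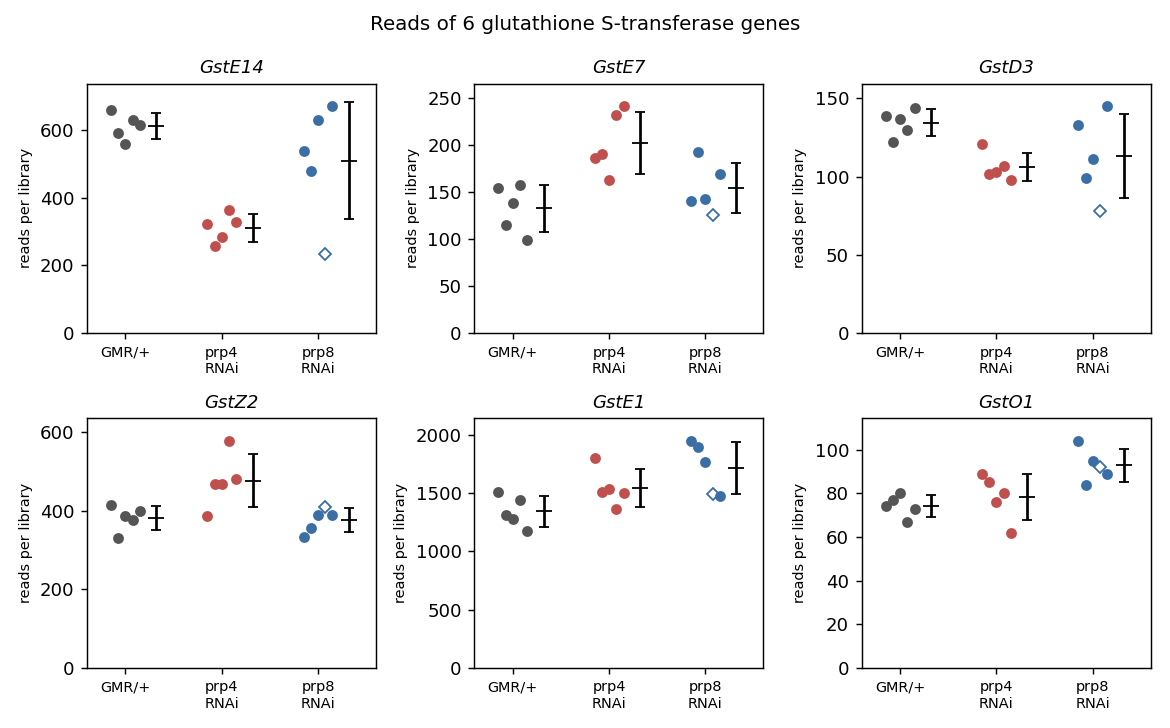
Reads per library of 6 GST genes in the 3 genotypes. Points are libraries, the open diamond is *GMR > prp8* RNAi replicate 14, and the black bars are means with SD. For *GstE14* the *GMR > prp4* RNAi libraries lie between 256 and 363, below all controls, and the diamond lies at 233.

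The third comparison set the knockdowns against each other, in a fit of all 15 libraries. Of 29 members tested, 1 passed, *GstZ2*, beside 2.36% of all 9115 genes, of which 1.37% were higher and 0.987% lower in *GMR > prp4* RNAi. No member had knockdown libraries that did not overlap, as 2.86% of all genes had. *GstZ2* gave 334, 356, 390, 410 and 389 reads in *GMR > prp8* RNAi and was higher in *GMR > prp4* RNAi by 0.37 on the log2 scale (adjusted p = 0.0449). The call was lost in 11 of the 15 fits that left out 1 library. *GstE14* had a log2 difference of -0.69 and missed the threshold (adjusted p = 0.0691). Without replicate 14 both genes passed, *GstE14* at -0.89 (adjusted p = 3.00e-05) and *GstZ2* at 0.39 (adjusted p = 0.0245), beside 6.32% of all genes.

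Exon use was then compared, since both targets act in splicing. In each knockdown 20 members had at least 2 testable exon windows under their symbol. Of these 1 passed, *GstD9*, beside 0.962% of 7484 genes in *GMR > prp4* RNAi and 0.601% of 7491 in *GMR > prp8* RNAi. The 20 include *GstE2* and *GstE7*, which are annotated without an intron. For such genes a window may be that of a neighbour, and the test is not one of exon use. *GstD9* was singled out with this pattern known, so its p-values are no independent support. An exon low in controls could also enter the test through the knockdown libraries alone, and the percentages of all genes may include such exons. *GstD9* is a delta GST on the minus strand of 3R, annotated at 12366163 to 12367564 (BDGP6), with 1 intron. The first exon was counted over 12367528 to 12367866, a window that runs 302 bp past the annotated start, lies wholly within the counted window of the neighbouring *GstD1* and reaches the annotated end of that gene.

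*GstD9* had 1, 0, 0, 2 and 0 reads in the first exon window in controls, 17, 22, 27, 26 and 29 in *GMR > prp4* RNAi and 22, 28, 26, 17 and 28 in *GMR > prp8* RNAi. No knockdown library overlapped with a control, and replicate 14 held 17 reads. The totals were 3 reads in controls and 121 in each knockdown, a ratio of 40.3 with a 95% counting interval of 13.5 to 198. Both ratios rest on the same control libraries, and both RNAi lines are labelled GD, so the knockdowns are not independent of each other here. In the second exon, *GstD9* had 250, 246, 194, 228 and 230 reads in controls, 227, 188, 195, 189 and 180 in *GMR > prp4* RNAi and 202, 153, 185, 195 and 218 in *GMR > prp8* RNAi, with overlap.

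The first exon window held 0.254 ± 0.385% of *GstD9* exon reads in controls, 11.1 ± 2.61% in *GMR > prp4* RNAi and 11.4 ± 2.80% in *GMR > prp8* RNAi (SD, n = 5 each). Both differences had p = 0.00794 in an exact two-sided permutation test, the smallest that 5 against 5 allows. Without replicate 14 the difference in *GMR > prp8* RNAi was 12.0 percentage points (p = 0.0159 in the same exact test), beside 11.1 with it. In the test of exon use of *GstD9* the window rose relative to its gene by 3.46 on the log2 scale in *GMR > prp4* RNAi (adjusted p = 1.03e-10) and by 3.48 in *GMR > prp8* RNAi (adjusted p = 2.07e-10), the latter by 3.54 without replicate 14 (adjusted p = 2.04e-10). That test took 3 windows of *GstD9*: the second exon, the first exon window and a nested form of it, 12367539 to 12367866. The nested form held the same reads in every library, so these entered the test repeatedly. The log2 values relative to the gene and their p-values depend on this. They also depend on the filter on low counts. Controls held 0 to 2 reads in the window, so it entered the test only through the knockdown libraries, where it was high. A window as low in the knockdowns as in controls would not have been tested, and the adjusted p-values do not allow for this.

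The window held 17 to 29 reads per knockdown library, few beside the gene count of *GstD9*. Mean gene counts were 218 in controls, 194 in *GMR > prp4* RNAi and 184 in *GMR > prp8* RNAi. They lay below the second exon means of 230, 196 and 191 reads. The gene count is thus not a sum of the exon windows, and whether it includes the window's reads was not tested. The gene count did not pass a test in either knockdown. It was 238, 224, 180, 227 and 220 in controls, 244, 180, 183, 187 and 177 in *GMR > prp4* RNAi and 182, 166, 181, 180 and 212 in *GMR > prp8* RNAi, with log2 fold changes of -0.15 (adjusted p = 0.380) and -0.25 (adjusted p = 0.125), the latter -0.24 without replicate 14 (adjusted p = 0.181). No read of any library spanned the annotated intron of *GstD9*. The intron of *GstD1*, a gene with 15350 or more reads in every library, was spanned by 0 to 3 reads per library. Whether the window's reads belong to *GstD9*, to *GstD1* or to the sequence between them was not tested.

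**Figure D4:**
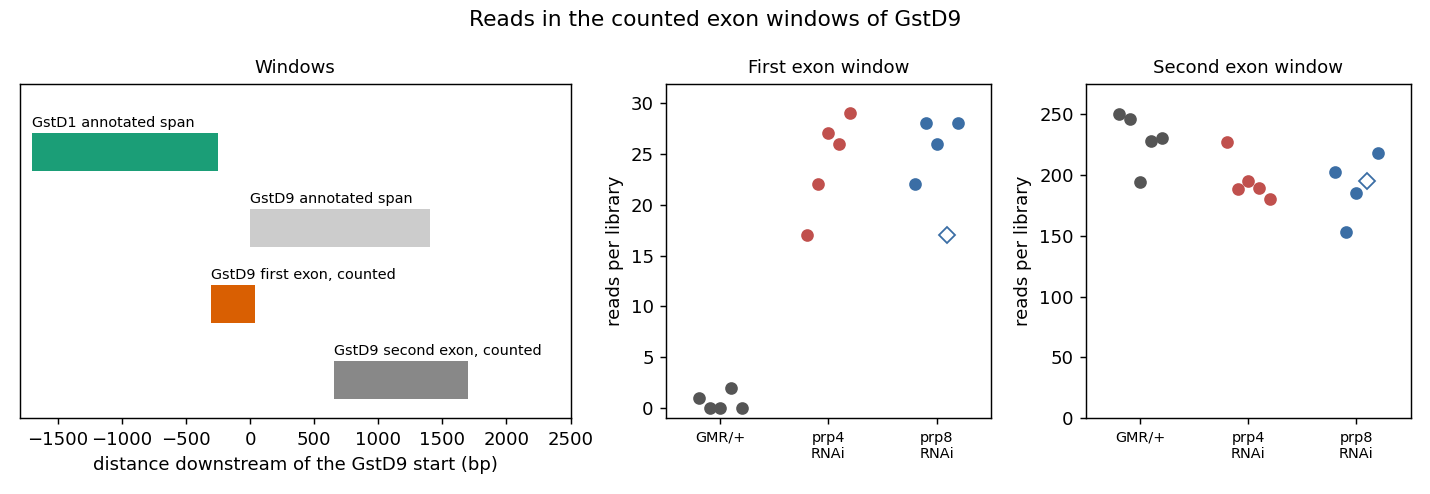
Left, the annotated spans of *GstD1* and *GstD9* and the counted exon windows of *GstD9*, by distance in bp downstream of the annotated *GstD9* start. Middle and right, reads per library in each window, with *GMR > prp8* RNAi replicate 14 as an open diamond. The first exon window holds 0 to 2 reads in controls and 17 to 29 in the knockdowns.

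Other genes of glutathione and peroxide metabolism were read from lists of 51 genes found in the table, of which 46 were tested. In *GMR > prp4* RNAi 4 were higher and 3 lower, with a median log2 fold change of -0.01, beside 4.97% of all genes higher and 4.66% lower. In *GMR > prp8* RNAi 0 were higher and 2 lower, with a median of -0.05, beside 2.36% of all genes higher and 2.37% lower. Without replicate 14, 3 were lower there and 0 higher, with *Men-b*, a malic enzyme, added at -0.25 on the log2 scale (adjusted p = 0.0256), beside 5.76% of all genes in either direction. None of 2 glutathione synthesis genes and none of 3 genes of the CncC and Keap1 list passed in either knockdown.

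*se* (*sepia*), an omega GST outside the symbol rule that makes a precursor of the red eye pigments, gave 424, 428, 378, 417 and 389 reads in controls, 304, 254, 267, 313 and 277 in *GMR > prp4* RNAi and 141, 134, 127, 254 and 184 in *GMR > prp8* RNAi. Each knockdown lay below all controls. *se* fell by 0.51 on the log2 scale in *GMR > prp4* RNAi (adjusted p = 0.000455) and by 1.29 in *GMR > prp8* RNAi (adjusted p = 0.000210), or by 1.48 without replicate 14. It was higher in *GMR > prp4* RNAi than in *GMR > prp8* RNAi by 0.78 (adjusted p = 0.00689), or by 0.96 without replicate 14 (adjusted p = 5.87e-06). Its annotated neighbour *GstO3* did not pass a test in either knockdown. The eye color gene *w* gave 454 to 509 reads in controls, 5524 to 6464 in *GMR > prp4* RNAi and 4081 to 6629 in *GMR > prp8* RNAi, or 4081 to 4613 without replicate 14, and its part in the level of *se* was not tested.

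Of 7 thiol peroxidase genes 2 rose in *GMR > prp4* RNAi and none fell, with a median log2 fold change of 0.01, and of 6 genes of superoxide and peroxide removal 1 rose and none fell, with a median of 0.03, beside 4.97% of all genes higher. *Prx2540-2*, a peroxiredoxin, gave 698, 554, 543, 625 and 497 reads in controls, 675, 867, 1040, 1037 and 1065 in *GMR > prp4* RNAi and 366, 333, 444, 496 and 714 in *GMR > prp8* RNAi. It rose by 0.70 on the log2 scale in *GMR > prp4* RNAi (adjusted p = 0.00398). *Prx2540-1* rose by 0.61 (adjusted p = 0.0215), and since these are near-identical neighbouring copies, the split of reads between them is uncertain. *Irc*, a catalase of the gut immune response, rose by 0.23 (adjusted p = 0.0292), a call lost in 7 of the 10 fits that left out 1 library.

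*Cat*, the main catalase, did not pass against controls in either knockdown but was higher in *GMR > prp4* RNAi than in *GMR > prp8* RNAi by 0.25 on the log2 scale (adjusted p = 0.0187), as were *Prx2540-1* by 0.88 (adjusted p = 0.00997) and *Prx2540-2* by 1.02 (adjusted p = 0.00611). Without replicate 14 these differences were 0.26 for *Cat* (adjusted p = 0.0113), 0.92 for *Prx2540-1* (adjusted p = 0.00330) and 1.03 for *Prx2540-2* (adjusted p = 0.00256). *Zw*, the glucose-6-phosphate dehydrogenase that supplies NADPH, gave 1645, 1563, 1682, 1693 and 1389 reads in controls, 1267, 1235, 1142, 1308 and 1363 in *GMR > prp4* RNAi and 1213, 1323, 1153, 1109 and 1415 in *GMR > prp8* RNAi. *Zw* fell by 0.32 (adjusted p = 0.0111) and by 0.37 (adjusted p = 0.0184), the latter by 0.32 without replicate 14. *MRP*, an exporter of glutathione conjugates, rose by 0.15 in *GMR > prp4* RNAi (adjusted p = 0.0251), and *CG30185* (*AIMP3*), a GST-like gene, fell by 0.29 (adjusted p = 0.0154). Leaving out 1 library ended the call of *MRP* in 5 of 10 fits, of *Prx2540-1* in *GMR > prp4* RNAi in 2 of 10 and of *Zw* in *GMR > prp8* RNAi in 4 of 10. It ended that of *Cat* between the knockdowns in 4 of 15.

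**Figure D5:**
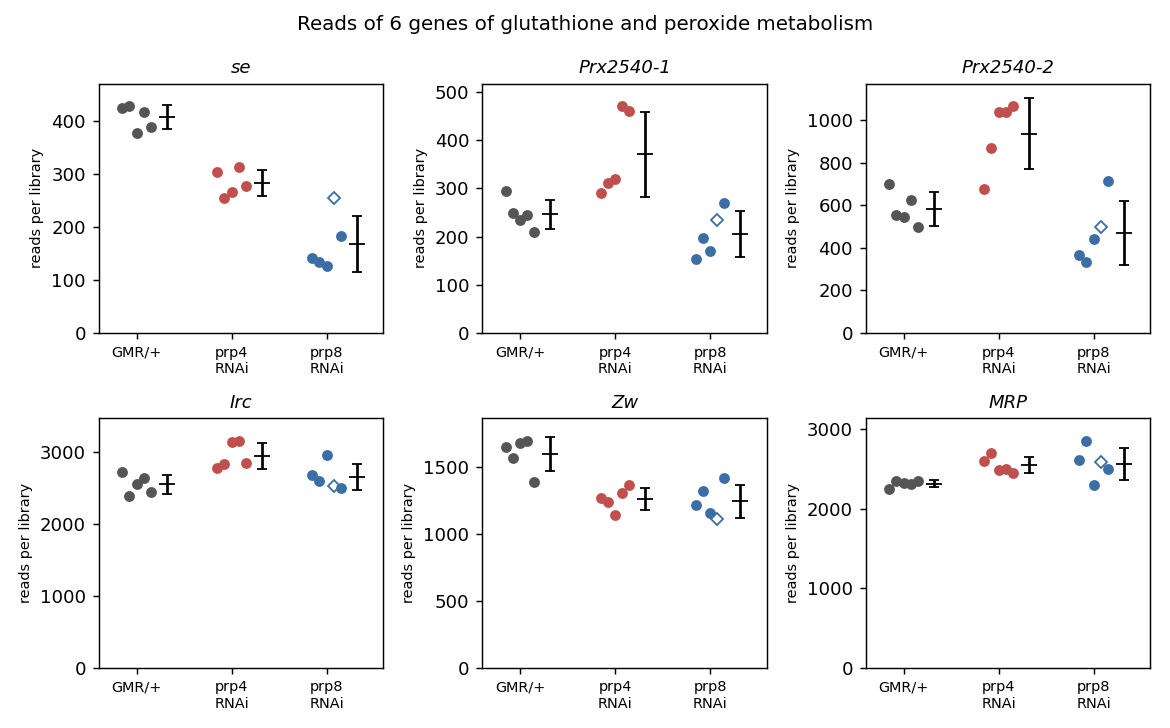
Reads per library of 6 genes of glutathione and peroxide metabolism in the 3 genotypes, drawn as points with mean and SD and with *GMR > prp8* RNAi replicate 14 as an open diamond. *se* lies between 378 and 428 in controls and between 127 and 313 in the knockdowns.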

How the data were processed

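RNA from heads was sequenced as stranded, paired-end SENSE mRNA-Seq libraries. The authors aligned reads to BDGP6 with STAR 2.5.3a, and with PORT 0.8.2a-beta removed ribosomal and mitochondrial reads and resampled libraries to equal depth under the Ensembl 88 annotation. They deposited whole-number counts of reads per gene, exon and junction, without scaling. The counted windows of all 35 members reach 302 bp past the annotated gene at both ends, and 28 overlap another gene on the same strand. In the exon table some single-exon windows of members carry the symbol of a neighbour. Exon reads given here were therefore taken by position within the counted gene windows. The test of exon use grouped exons by the symbol they carry, without this correction. Annotated spans, strands and introns came from Ensembl 115.

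Gene counts were tested in R 4.3.3 with edgeR 4.0.16 (filterByExpr, TMM normalization, quasi-likelihood test, Benjamini-Hochberg adjustment over all genes tested, threshold 0.05), 5 libraries against 5, or all 15 for the knockdowns against each other. Exon use was tested with diffSpliceDGE and Simes p-values, on exons that reached 10 counts in 5 libraries or more. Shares of *GstD9* reads were compared by exact permutation tests in scipy 1.17.1. Alternatives were limma 3.58.1, DESeq2 1.42.0, other filters and scaling, and leaving out each library. Values of target genes, markers, gene lists and the family's share without *GMR > prp8* RNAi replicate 14 were added after seeing the data. The tests were checked on simulated data with 200 genes changed 2-fold. The edgeR gene test recovered 200 with 5 false calls, limma-voom 198 with 7 and DESeq2 197 with 20. The test of exon use recovered 161 of 200, with 4 false calls. The simulation used the same spread for all features and changed none with as few reads as the *GstD9* first exon window. The study describes the control and *GMR > prp4* RNAi libraries as biological replicates. For *GMR > prp8* RNAi the sources used here do not state it, and p-values there measure the spread between libraries, which may be technical. Counting intervals cover counting error only.

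All members are accounted for. Values per library are given for members past the threshold, the 5 with the highest level per kb in controls, *GstD9* and *GstD1*, with *GstE1* past the threshold in an alternative and *GstO1* and *GstE4* added after their values were seen. List genes past the threshold are named. The members and lists were chosen with earlier results of these data known.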

Additional observations from a re-analysis of the deposited data

Results flagged for a closer look

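*GstZ2* differed between the knockdowns in a test of that difference, with a log2 value of 0.37 for *GMR > prp4* RNAi against *GMR > prp8* RNAi. This call was lost in 11 of the 15 fits that left out 1 library. Among 86 gene and genotype groups of 5 libraries with a mean count of at least 10, 4 held a library far from the others, measured as its gap to the nearest library over the range of the group, and chance flags about 1 in 20. *GstD5* had 21 reads in *GMR > prp8* RNAi replicate 12 and 7 to 10 in the others (ratio 0.79). *GstD9* had 244 in *GMR > prp4* RNAi replicate 6 and 177 to 187 in the others (ratio 0.793). *GstE11* had 323 in *GMR > prp8* RNAi replicate 15 and 258 to 277 in the others (ratio 0.80). *GstZ1* had 93 in *GMR > prp8* RNAi replicate 13 and 74 to 80 in the others (ratio 0.746).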

How the results depend on the processing

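No paired analysis was possible because each library carries its own replicate number and no label links libraries across genotypes. No log2 fold change of a named gene that passed the threshold changed sign. Of 954 values of named genes under alternatives, 891 kept their side of the threshold, 50 lost the call and 13 gained it. Members called in *GMR > prp8* RNAi, 0 in the main test, numbered 1 with DESeq2 (*GstE1*), 2 with library size scaling (*GstE1* and *GstO1*), 1 without a filter on low counts and 1 with all 15 libraries in the fit. Between the knockdowns, where 1 member was called, limma-voom gave 0, no filter 2 and a fit of only the 10 knockdown libraries 0. All genes called there, 215, became 373 with DESeq2 and 84 with only the 10 knockdown libraries. *GstD3* in *GMR > prp4* RNAi lost its call in the fit of all 15 libraries (adjusted p = 0.125), and *GstZ2* with limma-voom (adjusted p = 0.0523).

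Leaving out 1 library gave 563 to 916 genes and 2 to 6 members called in *GMR > prp4* RNAi, where the lowest counts came without control replicate 3. It gave 214 to 545 genes and 0 to 1 members in *GMR > prp8* RNAi, and 75 to 579 genes and 0 to 2 members between the knockdowns, where the 579 came without *GMR > prp8* RNAi replicate 14. The log2 change of the *GstD9* first exon window relative to its gene, 3.46 in *GMR > prp4* RNAi and 3.48 in *GMR > prp8* RNAi, was 4.75 and 4.78 by limma diffSplice. Leaving out 1 library, it ranged from 3.25 to 4.12 in *GMR > prp4* RNAi and from 3.28 to 4.14 in *GMR > prp8* RNAi, with exons kept at 10 counts in at least 4 libraries, a filter chosen after seeing the data. The difference in share ranged from 10.2 to 11.9 and from 10.1 to 12.0 percentage points. Per 1000 *GstD1* exon reads, a denominator also chosen after seeing the data, the window held 1.36 and 1.30 reads more than in controls. A minimum of 50 counts and a denominator of junction reads could give no value for *GstD9*. Depth limits the 6 untested members and the first exon window, where controls held 3 reads in all. The cause of these changes was not tested.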
